A study of Mus musculus with 2 samples.

Results

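Saa3, Hp, Slpi, Orm1, Ptx3 and Cp are 6 genes of acute-phase proteins among the 54446 genes counted in mouse macrophages given IL-36 gamma and in untreated macrophages. The list was selected on measured values of these libraries, because Saa3 was higher by more than 2-fold, and the genes were found by symbol in GENCODE M21. Both groups were bone marrow derived macrophages of C57BL/6 mice, cells grown out of marrow in culture. The treated group received IL-36 gamma, which belongs to the interleukin-1 cytokines, and the control received no treatment. The sources used here do not give the dose, duration, sex, age or number of mice. Each group had 1 library of total RNA, with 17267900 counts in genes for IL-36 gamma and 17426367 for the control.

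Since each group is a single library, differences could not be checked against replicates and carry no p-value. Ratios divide the scaled count of the IL-36 gamma library by that of the control, with an exact 95% (Clopper-Pearson) interval that covers counting error only. A gene counts as measured at a mean of at least 10 counts, and as past the size rule when its whole interval lies above 2 or below 0.5. Bulk counts cannot tell fewer cells of a type from less RNA per cell.

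Acute-phase proteins are plasma and secreted proteins whose output shifts during infection or injury. Hepatocytes make most of them after IL-1 and IL-6 reach the liver, through the transcription factors NF-kB, STAT3 and the C/EBP family. Several are also made outside the liver, and macrophages are a known source of Saa3, the serum amyloid A form typical of extrahepatic tissue in mice. Haptoglobin (Hp) captures free haemoglobin, ceruloplasmin (Cp) is a copper enzyme that oxidises ferrous iron, and Orm1 encodes alpha-1 acid glycoprotein, a carrier of the lipocalin fold. Slpi encodes an inhibitor of neutrophil serine proteases, and Ptx3 a long pentraxin that tags microbes and binds complement.

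The bases just before the transcription start are shown for the measured members that have an entry in the RefSeq promoter table (GRCm38.p6), and for Saa1, the neighbouring paralog of Saa3 with few counts here. Hp and Orm1 are named only. Windows of 250 bases before the start were searched on both strands for a C/EBP motif (TTNNGNAA), an NF-kB motif (GGG and CC with any 5 bases between them) and a STAT motif (TTCNNNGAA). Capitals mark matches, and any overlap or join of matches is printed as 1 run of capitals. The last 24 bases of the Saa3 window lie in an annotated exon and are not printed. Each line runs 5′ to 3′ on the strand of the gene.

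Saa3, chr7:46715701-46715926, minus strand: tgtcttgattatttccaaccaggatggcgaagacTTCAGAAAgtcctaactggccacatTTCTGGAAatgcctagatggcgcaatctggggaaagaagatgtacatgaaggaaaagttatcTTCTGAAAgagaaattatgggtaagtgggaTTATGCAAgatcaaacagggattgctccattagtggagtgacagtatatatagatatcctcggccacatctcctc
Saa1, chr7:46742981-46743230, minus strand: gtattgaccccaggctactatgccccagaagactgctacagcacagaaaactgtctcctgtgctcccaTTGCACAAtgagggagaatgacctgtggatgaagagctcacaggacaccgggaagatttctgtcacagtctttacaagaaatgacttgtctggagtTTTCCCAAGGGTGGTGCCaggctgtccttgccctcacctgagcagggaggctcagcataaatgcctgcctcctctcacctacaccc
Cp, chr3:19956804-19957053, plus strand: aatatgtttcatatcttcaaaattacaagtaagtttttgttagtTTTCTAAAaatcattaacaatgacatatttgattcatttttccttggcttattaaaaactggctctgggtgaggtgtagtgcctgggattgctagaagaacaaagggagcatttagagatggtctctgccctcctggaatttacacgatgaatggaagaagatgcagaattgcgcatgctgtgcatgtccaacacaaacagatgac
Slpi, chr2:164356508-164356757, minus strand: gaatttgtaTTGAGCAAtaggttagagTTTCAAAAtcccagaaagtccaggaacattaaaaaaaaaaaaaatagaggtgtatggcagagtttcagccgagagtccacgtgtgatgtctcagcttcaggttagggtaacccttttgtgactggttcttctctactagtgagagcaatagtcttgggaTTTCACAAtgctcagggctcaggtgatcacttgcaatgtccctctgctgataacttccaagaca

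The Saa3 window held 4 C/EBP matches, and the nearest to the start, TTATGCAA, began 99 bases before it. The Slpi window held 3 C/EBP matches, the Saa1 window 2 and the Cp window 1. Saa1 had 1 NF-kB match (GGGTGGTGCC), which joins a C/EBP match, and the Saa3, Slpi and Cp windows shown had none. The window of a further Cp start downstream, not printed, held 1 C/EBP match and 1 NF-kB match. Both lie within its last 195 bases, which are part of an annotated Cp exon. The window of Ptx3, which is not printed, held 1 C/EBP match. No STAT match was found in any of these windows. Matches of this kind are common: 36.8% of 32851 windows in the table hold the C/EBP motif, 45.8% the NF-kB motif and 7.02% the STAT motif. They describe the letters only.

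Saa3 was by far the most abundant of the 6 genes, and it alone passed the size rule. Levels between genes are compared in TPM, which divides counts by merged exon length and scales them to a common library total, with exact Poisson intervals. Saa3 stood at 434 TPM (424 to 444) with IL-36 gamma and 190 TPM (184 to 197) in the control. By TPM it ranked 312 among all genes in the IL-36 gamma library and 697 in the control.

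Slpi came next, with 53.1 TPM (48.0 to 58.5) with IL-36 gamma and 48.7 (43.8 to 54.1) in the control. Hp had 45.9 TPM (41.9 to 50.3) with IL-36 gamma and 35.5 TPM (31.9 to 39.4) in the control. The intervals of Slpi and Hp overlapped in the IL-36 gamma library and did not in the control. Cp had 17.0 TPM (15.9 to 18.0) with IL-36 gamma and 11.9 TPM (11.1 to 12.9) in the control. Orm1 had 14.4 TPM (11.3 to 18.2) with IL-36 gamma and 8.36 TPM (5.97 to 11.4) in the control. Cp and Orm1 overlapped in both libraries, and Ptx3 lay below all others. The TPM of Cp divides by 9566 merged exon bases, while its longest transcript has 4564 bases. Its level, and its place beside Orm1, therefore depend on the length used. Slpi (1180 merged exon bases, longest transcript 876) and Hp (1606 and 1345) differ in these lengths too. Their levels, and whether their intervals overlap, depend on that choice as well.

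**Figure D1:**
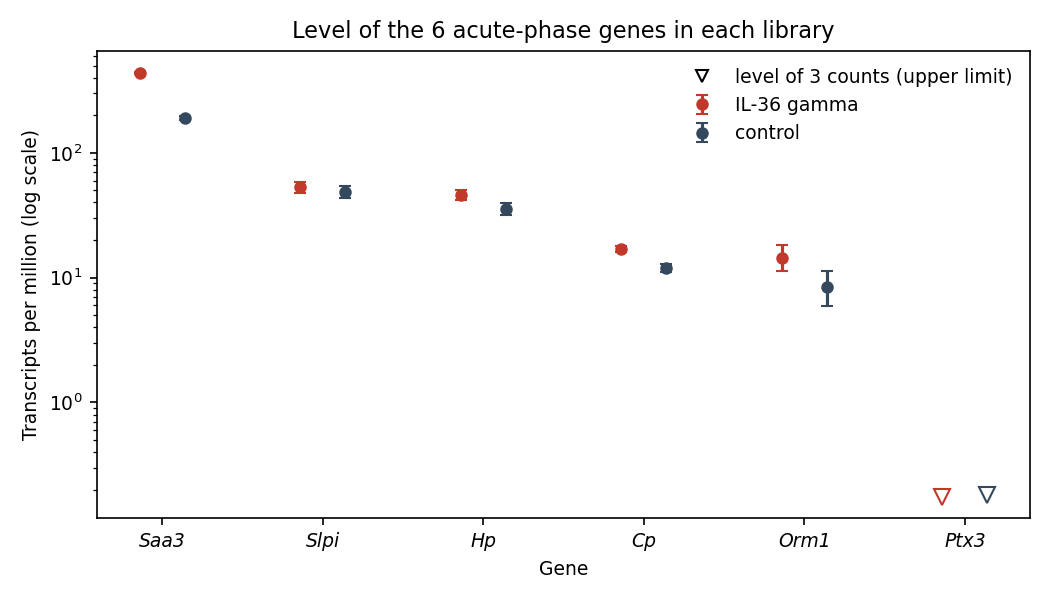
Level of each of the 6 genes in TPM (log scale) in the IL-36 gamma library (red, left) and the control library (blue, right), with exact 95% Poisson intervals of the count. Saa3 stands at 434 TPM with IL-36 gamma and 190 TPM in the control. The open triangles for Ptx3 mark the level of 3 counts, 0.176 TPM with IL-36 gamma and 0.181 TPM in the control. The 95% Poisson upper ends of Ptx3 lie above them, at 0.216 TPM with IL-36 gamma and 0.436 TPM in the control.

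Of the 5 members that were measured, all 5 had an interval wholly above 1, where 20.2% of 14379 measured genes did, and 0 were below 1, where 16.5% of genes were. This contrast chose the list, so these shares and the median are given as a description. Ptx3, the sixth, was not measured. For Slpi the place above 1 was lost with scaling by total counts, with TPM, with a trend on exon length removed and at a 99% interval. The members' median log2 ratio was 0.62, against 0.01 over all measured genes. The log2 ratios use a prior count of 2.

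**Figure D2:**
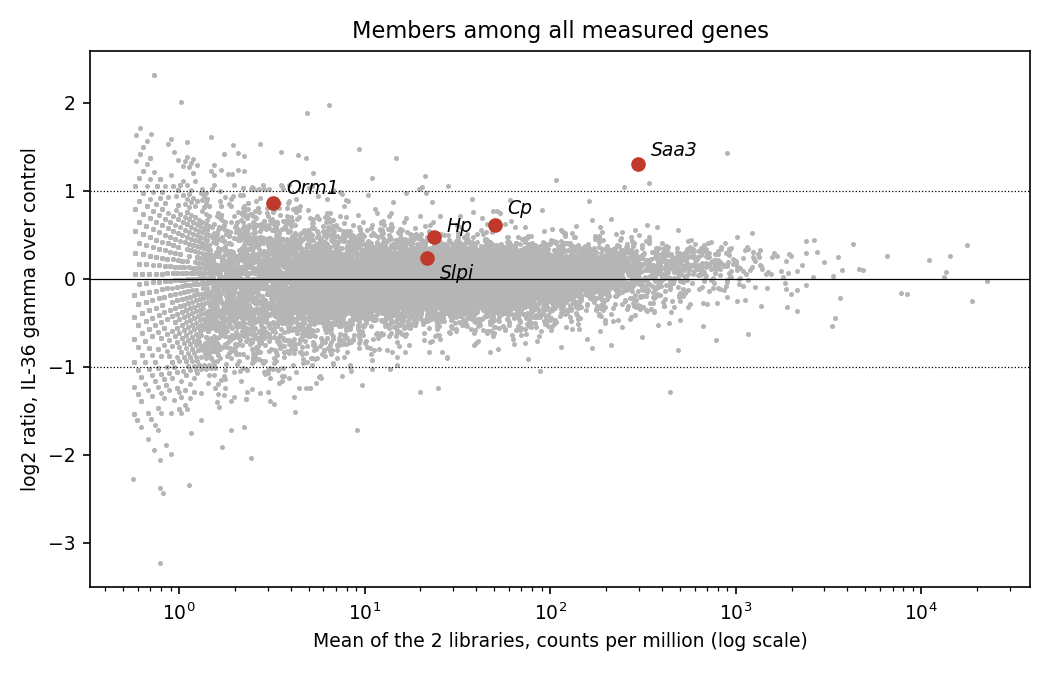
Each grey point is 1 of 14379 measured genes, with its mean level in CPM (counts over the scaled library size, log scale) and its log2 ratio of IL-36 gamma over control, and the 5 measured members are red. Saa3 lies at a log2 ratio of 1.30, while Orm1, Cp, Hp and Slpi lie between 0.23 and 0.86 (dotted lines, 2-fold either way).

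Saa3 (ENSMUSG00000040026, mm10 chromosome 7, 46711998 to 46715700, minus strand) encodes an acute-phase apolipoprotein that also acts as a chemoattractant. It had 7193 counts in the IL-36 gamma library and 3061 in the control, a ratio of 2.47 (2.36 to 2.57). Only 11 genes (0.0765% of those measured) lay past the size rule above 2, and 13 (0.0904%) below 0.5. These calls depend on scaling, with 8 higher and 16 lower by total counts, and 7 higher and 17 lower by TPM. The bound nearest 1 put Ndrg1 (ratio 2.14) just inside the size rule and Irf7 (ratio 2.06) just outside it. Saa3 gained 252.6 CPM, and 30 genes gained more. Its ratio stayed between 2.28 and 2.47 under the scalings tried over all genes, and past 2 in each.

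Saa3 stands in a cluster with Saa1, Saa2 and Saa4, the serum amyloid A genes known mainly from liver. Saa2 had 75 counts with IL-36 gamma and 57 in the control, a ratio of 1.38 (0.966 to 1.98). Saa1 had 53 counts with IL-36 gamma and 46 in the control, a ratio of 1.21 (0.799 to 1.84). Both intervals include 1. Saa4, the constitutive form, had 7 counts with IL-36 gamma and 12 in the control and was not measured. Reads of Saa1 and Saa2 are hard to place, since 32.1% of 50-base stretches of the longest Saa1 transcript also occur in a transcript of Saa2 or Saa3. For the longest Saa3 transcript the share was 3.91% at 50 bases and 0 at 100 bases. Its shared 50-base stretches occur in 244 other genes, none of them a serum amyloid A paralog.

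The genes around Saa3 differed less. Within 100 kb, the transcription factor subunit gene Gtf2h1 had a ratio of 1.11 (0.998 to 1.24), Saal1 1.22 (0.982 to 1.52), Sergef 1.30 (1.04 to 1.63) and Hps5 0.855 (0.775 to 0.942). These neighbours were chosen by position. The protein-coding genes, among those reaching 50 counts in 1 library or both, whose log2 ratio was nearest that of Saa3 were Fgl1, H2-Q6, Ltb4r1, Camkk1 and Phgdh. They had ratios of 2.5, 2.61, 2.46, 2.80 and 2.72, over 1 pair of libraries. Fgl1, a fibrinogen-like gene known from hepatocytes, rested on 50 counts with IL-36 gamma and 21 in the control.

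**Figure D3:**
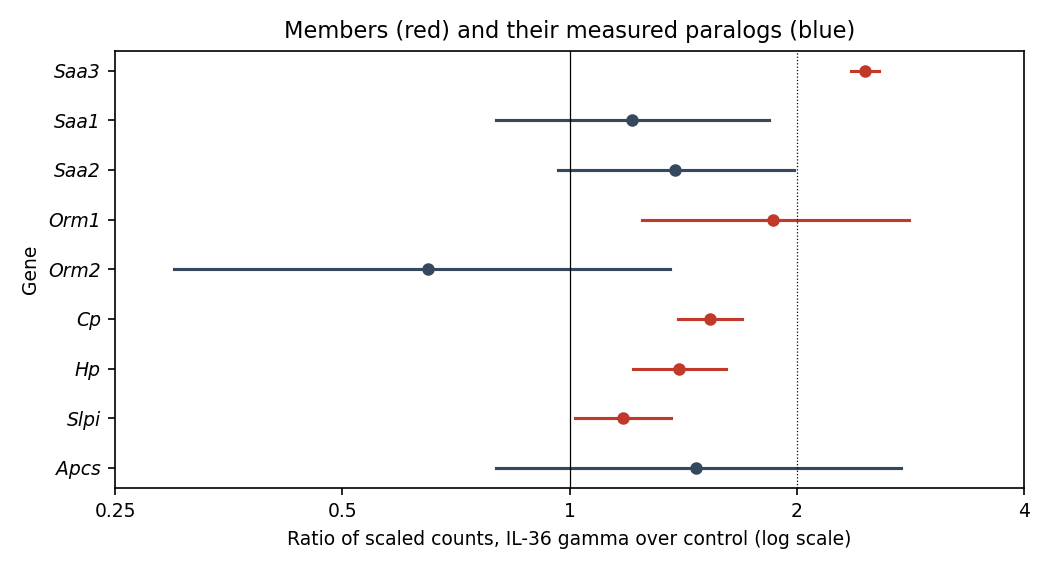
Ratio of scaled counts, IL-36 gamma over control (log scale), with 95% counting intervals for the measured members (red) and their measured paralogs (blue). The interval of Saa3 lies wholly above 2 (dotted), and those of Saa1, Saa2, Orm2 and Apcs include 1 (solid line).

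Cp (ENSMUSG00000003617, chromosome 3, 19957054 to 20009145, plus strand) had the next firmest difference. It had 1031 counts with IL-36 gamma and 705 in the control, a ratio of 1.53 (1.39 to 1.69). Of its 9566 exonic bases, 108 overlap exons of Hps3 on the opposite strand, and Hps3 had a ratio of 0.915 (0.817 to 1.03). The sources used here do not say whether counting used strand.

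By number of genes and median, the partners of ceruloplasmin in iron export were not higher as a group. Their summed counts had a ratio of 1.252 (1.248 to 1.257). Of 6 measured genes of this list, 2 had an interval above 1 and 2 below, where 20.2% and 16.5% of all measured genes did. Their median log2 ratio was -0.14. Slc40a1, which encodes ferroportin, the iron exporter that works with ferroxidases, had 1362 counts with IL-36 gamma and 2145 in the control, a ratio of 0.667 (0.622 to 0.714). Atp7a, a copper pump that can load cuproenzymes, had 493 counts with IL-36 gamma and 752 in the control, a ratio of 0.688 (0.613 to 0.772). The ferritin genes Fth1 (ratio 1.30) and Ftl1 (1.20), which store iron, were above 1. Heph, the membrane-bound paralog of Cp, had 0 counts with IL-36 gamma and 3 in the control, and Hephl1 had 0 in both.

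Hp (ENSMUSG00000031722, chromosome 8, 109575128 to 109579172, minus strand) had 469 counts with IL-36 gamma and 352 in the control, a ratio of 1.40 (1.21 to 1.61). Cd163, the macrophage receptor that takes up haptoglobin bound to haemoglobin, had 249 counts with IL-36 gamma and 618 in the control, a ratio of 0.423 (0.364 to 0.491), past the size rule. Haptoglobin transcripts were higher and those of its receptor lower in the same library. Of 5 measured genes of haem handling, 2 were above 1 (1 by TPM or with a trend removed) and 2 below. The shares over all measured genes were 20.2% and 16.5%. Blvrb, a biliverdin reductase, had a ratio of 1.22 (1.18 to 1.26) and the haem oxygenase gene Hmox1 1.07 (1.05 to 1.09). Lrp1, the receptor for haem bound to haemopexin, had a ratio of 0.736 (0.728 to 0.745). The haemoglobin genes Hba-a1, Hba-a2, Hbb-bs and Hbb-bt had between 0 and 4 counts in each library.

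Orm1 (ENSMUSG00000039196, chromosome 4, 63344560 to 63348163, plus strand) rested on few counts, 71 with IL-36 gamma and 40 in the control, a ratio of 1.86 (1.25 to 2.82). Its paralog Orm2 had 13 counts with IL-36 gamma and 21 in the control, a ratio of 0.650 (0.299 to 1.36), and Orm3 had 5 counts with IL-36 gamma and 4 in the control. Of 50-base stretches of the Orm1 transcript, 20.4% also occur in Orm2 or Orm3, so the split between these genes is uncertain. Among the other lipocalin genes, 1 of 5 measured was above 1 and 0 below (all measured genes, 20.2% and 16.5%). That one was Lcn2, an iron-withholding protein of innate defence, with a ratio of 1.69 (1.54 to 1.86).

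Slpi (ENSMUSG00000017002, chromosome 2, 164354070 to 164389095, minus strand) differed least of the measured members. It had 398 counts with IL-36 gamma and 355 in the control, a ratio of 1.18 (1.02 to 1.36). With scaling by total counts the ratio was 1.13 (0.978 to 1.31), which includes 1. Genes of 2 neutrophil serine proteases, from a list built around Slpi, had few counts and higher values. Elane, neutrophil elastase, had 22 counts with IL-36 gamma and 3 in the control, a ratio of 7.70 (2.31 to 40.2), past the size rule. The control count of Elane lies at 3 counts, the level taken here as the floor. Elane counts as measured only through the IL-36 gamma library, so the size of its ratio is uncertain. Prtn3, proteinase 3, had 56 counts with IL-36 gamma and 28 in the control, a ratio of 2.10 (1.31 to 3.43). Ctsg, cathepsin G, had 9 counts with IL-36 gamma and 0 in the control. Grn, the progranulin gene whose product Slpi shields from cleavage, had a ratio of 1.07 (1.05 to 1.08). Of 6 measured genes of this list 5 were above 1, where 20.2% of all measured genes were. The count was 3 by TPM, and 3 at a mean count of at least 50.

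Among the other genes with the WAP domain that Slpi carries, 2 of 13 were measured. Wfdc17 had 2635 counts with IL-36 gamma and 1990 in the control, a ratio of 1.39 (1.31 to 1.47). Its interval and that of Slpi overlapped.

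Ptx3 (ENSMUSG00000027832, chromosome 3, 66219910 to 66225805, plus strand) was hardly detected, with 0 counts with IL-36 gamma and 2 in the control. A count of 3 would equal 0.176 TPM in the IL-36 gamma library and 0.181 TPM in the control. The upper ends of the 95% Poisson intervals lie higher, at 0.216 TPM with IL-36 gamma and 0.436 TPM in the control. No ratio is given. The short pentraxin genes were scarce too. Apcs, serum amyloid P, had 28 counts with IL-36 gamma and 20 in the control, a ratio of 1.47 (0.799 to 2.75), and Crp had 6 counts with IL-36 gamma and 10 in the control. The neuronal pentraxin receptor gene Nptxr had a ratio of 0.634 (0.461 to 0.866).

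Genes of proteins that bind Ptx3 were divided, with 4 of 11 measured above 1 and 4 below, beside 20.2% and 16.5% of all measured genes. The Fc receptor genes Fcgr4 (ratio 1.44) and Fcgr1 (1.35) were above 1. The Fc receptor genes Fcgr3 (0.912) and Fcgr2b (0.722) were below it. Above 1 the count was 2 by TPM and with a trend on exon length or on expression removed.

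The measured members were also set against each other, each as a ratio of ratios that needs no scaling. Since the ratio of Saa3 chose the list, its place above the others describes that choice and tests nothing. The ratio of Saa3 was 1.61 times that of Cp (1.45 to 1.79), 1.76 times that of Hp (1.52 to 2.04) and 2.10 times that of Slpi (1.80 to 2.44). Against Orm1 the value was 1.32 (0.873 to 1.98), and the interval includes 1. Cp and Hp were not separated, at 1.10 (0.924 to 1.30).

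Acute-phase genes outside the 6 were mixed. Of 34 listed, 25 were measured, and 7 of these had an interval above 1 and 3 below, with a median log2 ratio of 0.29. Over all measured genes 20.2% were above 1 and 16.5% below. By TPM the same counts were 5 above and 6 below, on a scale where the median of all genes lies at -0.10. The genes with the bounds farthest from 1 were Il1rn, Lcn2, Itih4, C4b and Fgg. Itih4, an inter-alpha-trypsin inhibitor chain, had 66 counts with IL-36 gamma and 32 in the control, a ratio of 2.17 (1.40 to 3.41). The complement gene C4b had a ratio of 1.52 (1.15 to 2.02) and the fibrinogen chain gene Fgg 1.44 (1.10 to 1.89). Il1rn, the interleukin-1 receptor antagonist, went the other way with 977 counts with IL-36 gamma and 2121 in the control, a ratio of 0.483 (0.448 to 0.522). Its direction is opposite to that of Saa3 in the same library.

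**Figure D4:**
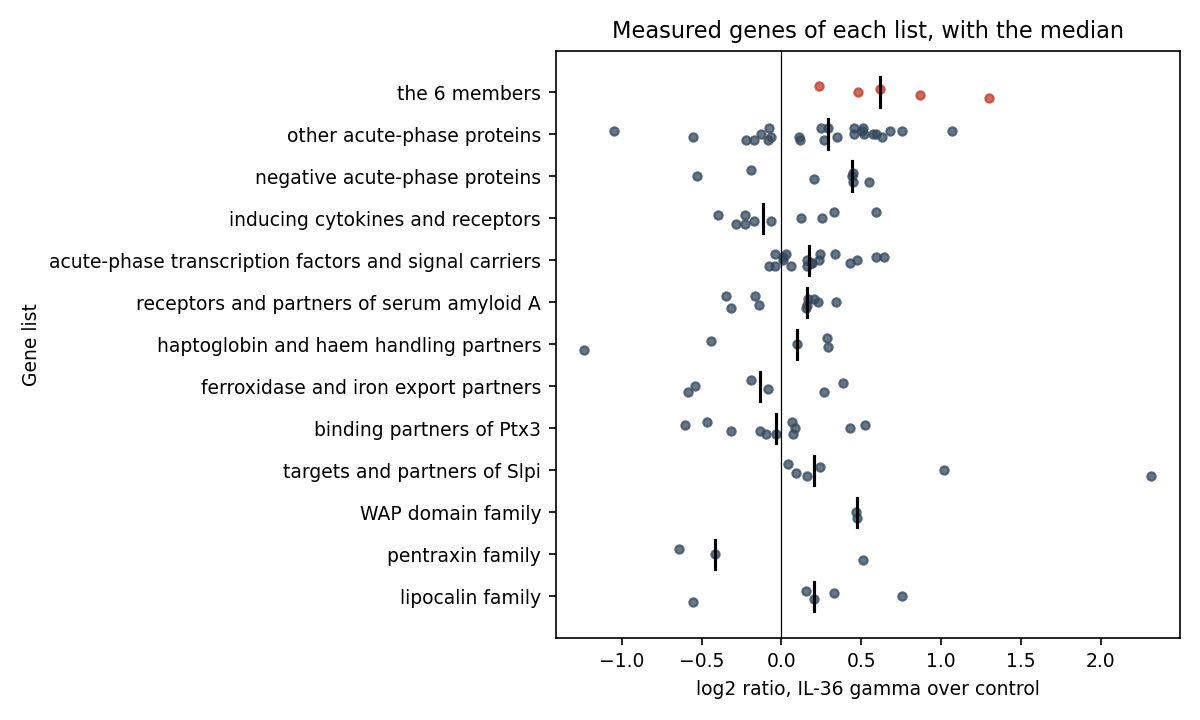
Log2 ratio of IL-36 gamma over control for each measured gene of the members (red, 5 of 6 measured) and of each related list (blue), with black bars at the medians. The members lie between 0.23 and 1.30, while the other acute-phase proteins spread to both sides of 0 around a median of 0.29.

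Of 18 measured transcription factors and signal carriers of the acute-phase response, 10 had an interval above 1, 1 was below and 7 included 1, with a median log2 ratio of 0.17. Over all measured genes 20.2% were above 1. By TPM 6 of the 18 were above 1 and 4 below. Cebpb, a C/EBP factor of the acute-phase response, had 5342 counts with IL-36 gamma and 4040 in the control, a ratio of 1.39 (1.33 to 1.45). Socs3, the feedback inhibitor of IL-6 signalling, had a ratio of 1.51 (1.38 to 1.64), the NF-kB partner gene Bcl3 1.35 (1.26 to 1.44), Cebpd 1.26 (1.17 to 1.36) and the NF-kB inhibitor gene Nfkbia 1.18 (1.13 to 1.24).

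Of 10 measured cytokines and receptors upstream, 1 was above 1 and 2 below, near the shares over all measured genes (20.2% and 16.5%). Tnf had a ratio of 1.26 (1.17 to 1.35). The IL-6 receptor genes Il6ra (0.854) and Il6st (0.854) were below 1. Il6 itself had 6 counts with IL-36 gamma and 1 in the control.

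Receptors reported for serum amyloid A were divided, with 4 of 10 above 1 (2 by TPM) and 3 below. All measured genes had 20.2% above and 16.5% below. The formyl peptide receptor gene Fpr2 had 1756 counts with IL-36 gamma and 1457 in the control, a ratio of 1.27 (1.18 to 1.36). Fpr1 (1.11) and the lipoprotein receptor gene Scarb1 (1.17) were above 1 as well. The scavenger receptor gene Cd36 (0.803) and the ATP-gated channel gene P2rx7 (0.786) were below 1.

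The labelled cell type had its markers. All 9 macrophage markers were measured, at a summed 29700 CPM with IL-36 gamma and 29890 CPM in the control, with 3 above 1 and 5 below. Genes of hepatocytes, the main source of acute-phase proteins, were also counted in both libraries. All 10 of the listed hepatocyte markers were measured, none was at 0, and their summed level was 170.0 CPM with IL-36 gamma and 126.5 CPM in the control, a ratio of 1.34 (1.27 to 1.42). Of the 10, 7 had an interval above 1 and 0 below, beside 20.2% and 16.5% of all measured genes. Albumin, Alb, had 1381 counts with IL-36 gamma and 1060 in the control, a ratio of 1.37 (1.26 to 1.48). Apoa1 had a ratio of 1.47 (1.24 to 1.75), the cytochrome P450 gene Cyp2e1 1.5 (1.14 to 1.97), Apoa2 1.28 (1.09 to 1.5) and Ahsg 1.37 (1.08 to 1.74). The negative acute-phase proteins, which the liver lowers during inflammation, include several of these genes. They had 4 of 7 measured above 1, beside the same 20.2%, with Igf1 (0.693) below.

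Set against Alb within each library, Hp, Cp, Slpi and Orm1 had quotients whose intervals include 1. Hp had 0.340 counts per Alb count with IL-36 gamma and 0.332 in the control, a quotient of 1.02 (0.869 to 1.20). Cp had 0.747 with IL-36 gamma and 0.665 in the control, a quotient of 1.12 (0.989 to 1.27). Slpi had 0.288 with IL-36 gamma and 0.335 in the control, a quotient of 0.861 (0.728 to 1.02), and Orm1 had a quotient of 1.36 (0.904 to 2.08). Saa3 had 5.21 counts per Alb count with IL-36 gamma and 2.89 in the control, a quotient of 1.80 (1.65 to 1.98), a value that is not independent of its selection for a high ratio. The part of hepatocyte transcripts in the values of Hp, Cp, Orm1 and the other liver-made genes was not tested.

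Neutrophil genes, some of which are made together with Hp and Slpi in granulocytes, also differed between the libraries. Of 16 measured of 19 listed markers, 8 were above 1 and 2 below, beside 20.2% and 16.5% of all measured genes. At a mean count of at least 50, 6 were above 1 and 2 below. The markers summed to 535.5 CPM with IL-36 gamma and 454.4 CPM in the control. S100a9 (ratio 1.70), S100a8 (1.58) and Ngp (1.54) were above 1 and Mmp8 (0.663) below, and no listed neutrophil marker was at 0 in both libraries. Monocyte markers had 4 of 5 measured above 1, beside the same 20.2%, led by Plac8 (2.83), Ms4a4c (1.97) and Ly6c2 (1.96). They summed to 66.4 CPM with IL-36 gamma and 40.0 CPM in the control. The part of these cells in the members' values was not tested.

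Markers of other cells that can make acute-phase proteins had few counts, and of the epithelial, adipocyte, lymphocyte and dendritic cell lists only 1 gene each was measured. Fibroblast and stromal markers summed to 7.97 CPM with IL-36 gamma and 13.3 CPM in the control, with Lum and Pdgfra at 0 in both. Of 5 measured, 3 were below 1, beside 16.5% of all measured genes. The adipocyte markers Adipoq, Lep and Cidec and the epithelial markers Epcam and Cldn4 were at 0 in both libraries, and of the lymphocyte markers Cd3e, Cd3g, Cd8a, Nkg7 and Ncr1 were at 0. Summed adipocyte markers were at 24.0 CPM with IL-36 gamma and 35.6 CPM in the control, nearly all from Fabp4, which macrophages express too. Epithelial markers summed to 0.886 CPM with IL-36 gamma and 2.25 CPM in the control. Lymphocyte markers, mostly Cd4, summed to 7.91 CPM with IL-36 gamma and 14.1 CPM in the control. Dendritic cell markers, mostly the integrin gene Itgax, summed to 21.1 CPM with IL-36 gamma and 37.9 CPM in the control.

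**Figure D5:**
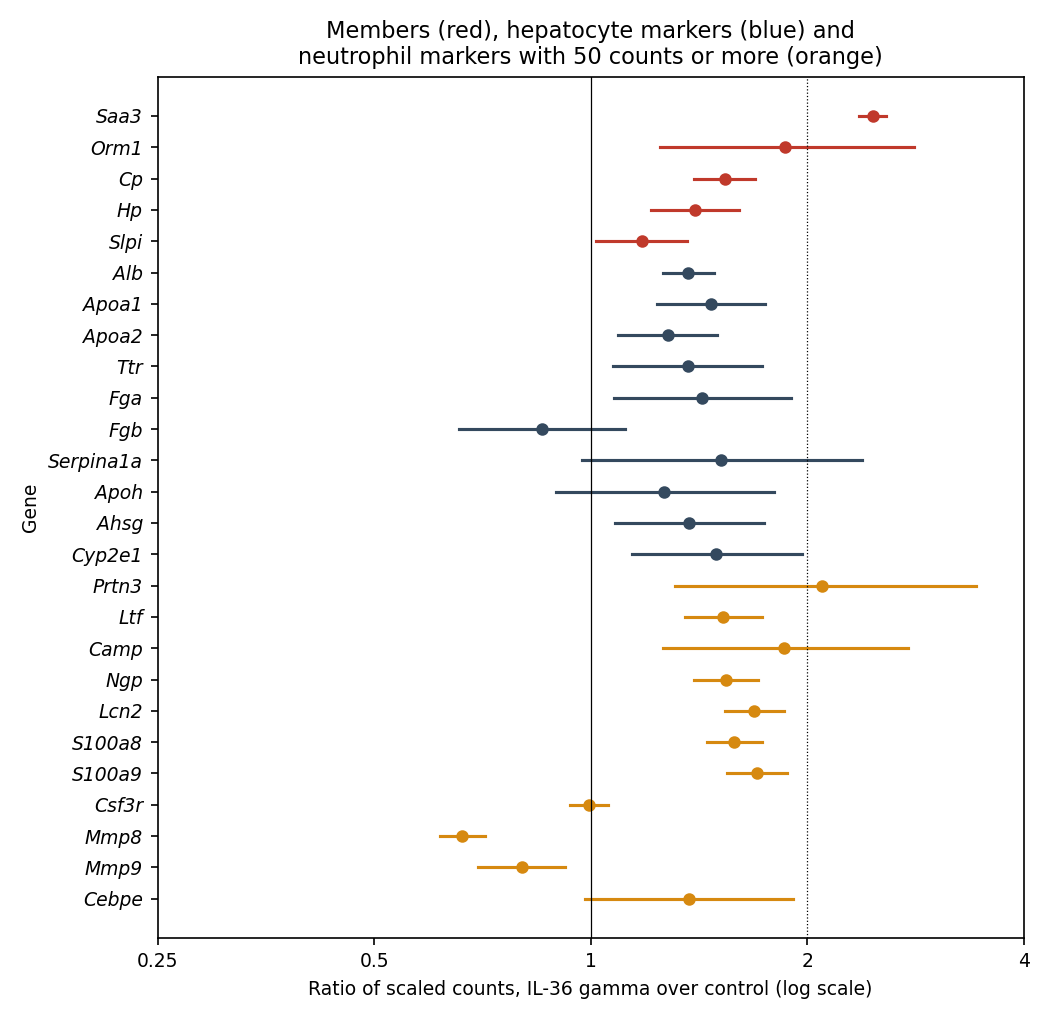
Ratio of scaled counts, IL-36 gamma over control (log scale), with 95% counting intervals for the measured members (red), the 10 hepatocyte markers (blue) and neutrophil markers that reach 50 counts in either library (orange). Hp and Slpi lie in the range of the hepatocyte markers, Alb at 1.37 among them. Cp at 1.53, Orm1 at 1.86 and Saa3 at 2.47 lie above all 10 by ratio. The intervals of Cp and Orm1 overlap that of Alb.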

How the data were processed

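The authors deposited unnormalized counts for each Ensembl gene, 1 library per group. They used mm10 with STAR 2.5.0a, HTSeq, Trim Galore 0.6.1 and FastQC 0.11.8, per the submitters' processing notes. The sources used here do not give the annotation, the strand or the counting settings. The counter's rows that name no gene held 55.1% of the IL-36 gamma total and 55.6% of the control total, and stayed out of all steps. Names, places and exon lengths came from GENCODE M21, which held 54409 of the gene IDs.

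Counts were scaled by TMM (edgeR 4.0.16, R 4.3.3; factors 0.981 for IL-36 gamma and 1.02 for the control) and summarised with Python 3.11.15 and scipy 1.17.1. No edgeR test was run, since single libraries leave no degrees of freedom for error. Reads of copied molecules are not independent, so the intervals and floors hold counting error alone, and nothing says that the libraries represent separate cultures.

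The members and the 21 gene lists were chosen with earlier results of these data known. Named from each list were genes past the size rule and up to 5 genes with at least 50 counts and an interval on 1 side of 1, ranked by the nearest bound; other list genes, such as Il6, Ctsg and Heph, were chosen after their values were seen. Values of some list members are not reported here. Alternatives were other scalings (among them DESeq2 1.42.0 size factors), trends on length or expression removed (lowess span 0.3), other filters, bounds, interval levels and prior counts. TPM, ratios to Alb and the removal of genes with opposite-strand overlap from the gene counts were chosen after seeing the data.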

Additional observations from a re-analysis of the deposited data

How the results depend on the processing

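The direction of Saa3, Orm1, Cp and Hp, and the place of their intervals above 1, held under all scalings and filters over all genes that gave a value. Saa3 stayed past 2, at 2.28 by TPM, 2.33 with a trend on exon length removed and 2.32 with a trend on expression removed. Slpi ran from 1.09 to 1.18, and its interval included 1 under total counts, TPM, a trend on exon length removed and a 99% interval. Set against Alb counts, the values were 1.80 for Saa3, 1.12 for Cp, 1.02 for Hp and 0.861 for Slpi. Cp has no value without genes overlapped on the opposite strand, since it is one of them.

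Genes past the size rule, 11 higher and 13 lower, were 7 and 5 at a 99% interval, 50 and 76 at a fold bound of 1.5, and 7 and 8 without opposite-strand overlap. By TPM 7 were higher. Without a count filter 21 were lower, and at a mean count of at least 50 it was 5. The cause was not tested, beyond the fewer genes that the stricter settings admit. Of the other acute-phase proteins, 6 were below 1 by TPM. Over settings, 96 further values of members and counts stayed within their interval or within 1.5 times. No list median moved by 0.1 or more with a prior count of 0.5 or 5. No paired analysis was possible because each group has 1 library. Among the members and their paralogs, depth limits Orm1, Ptx3, Saa1, Saa2, Saa4, Orm2, Orm3, Apcs and Crp. Each of these rests on under 100 counts in each library.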
